A study of Mus musculus with 7 samples.

Results

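The 37 genes described here encode enzymes, transporters and regulators of glycolysis, gluconeogenesis, glycogen and fructose metabolism, the entry of pyruvate into mitochondria, and insulin signalling. They were chosen by name, and a gene was kept where its Ensembl identifier in the deposited table carried a listed symbol in the GENCODE vM21 annotation of the mouse. All 37 were found among the 14851 identifiers of the table, and all 37 were among the 12545 genes tested. By role they divide into 4 of gluconeogenesis, 3 of glucose sensing and transport, 15 of glycolysis, 5 of glycogen, 5 of insulin signalling, 1 of fructose and 4 of the step from pyruvate to acetyl-CoA.

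The liver stores glucose as glycogen after a meal, and releases it by glycogen breakdown and gluconeogenesis in fasting. Insulin, acting through its receptor, the IRS adaptor proteins and AKT, keeps the transcription factor FOXO1 out of the nucleus and so lowers transcription of gluconeogenic genes and of *Igfbp1*, while cAMP raised by glucagon has the opposite effect on several of them. Gluconeogenesis is strongest in hepatocytes near the portal vein and glycolysis in those near the central vein, which are also the cells that convert CCl4 into reactive radicals. In several cell types p53 is known to restrain glucose uptake and glycolysis, which is the question that a comparison of livers with and without p53 can address for these genes.

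The FL group was 4 *Albumin-Cre; p53* FL/FL mice, whose Cre recombinase, made under the *Albumin* promoter, removes floxed *Trp53* from hepatocytes. The WT group was 3 *Albumin-Cre; p53* WT/WT mice, which have the same Cre and an intact *Trp53*. All were C57BL/6J (N10) males on normal chow, about 70 days old, taken 8 h after 1 intraperitoneal injection of CCl4 in the morning (1 mL/kg of a 20% v/v solution in corn oil), and untreated livers were not analysed here. Cells in which this Cre was never active keep *Trp53* in this model. Some mice of both genotypes in the study's cohorts also carried a red fluorescent reporter at *Rosa26*. The labels give all WT mice source names with 1 prefix and the FL mice source names with 2 other prefixes. What the prefixes stand for is not known here, so any effect tied to them and the effect of genotype cannot be told apart. The study states that mice within an experiment were matched by age and litter as far as possible and treated together. Feeding before sampling is known only as free access to chow, and the methods name no fast or change of food at treatment. Because whole liver was sequenced, fewer cells of a type and less RNA per cell cannot be told apart.

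Values are normalised counts, that is, reads per gene divided by a size factor for each liver and rounded by the authors. A log2 fold change is the FL minus the WT mean of log2(normalised count + 1), which understates changes of genes with low counts, and is positive where FL is higher. *Trp53*, the deleted gene, was at 131, 130, 217 and 110 in FL replicates 1 to 4 (the order used throughout) and at 876, 688 and 831 in WT replicates 1 to 3. On the log2 scale FL minus WT was -2.47, with a standard error (SE) of 0.23 (limma adjusted p = 0.0447). The groups did not overlap, in the direction of the genotype labels. Between 11.9 and 19.5 M reads per liver were estimated to lie on genes. The 6 hepatocyte markers (*Alb*, *Ttr*, *Apoa1*, *Fgb*, *Serpina3k* and *Tat*) summed to 1597171 to 2059928 normalised counts in FL and to 1370812 to 1532161 in WT livers. Hepatocyte RNA was thus abundant in every liver, and the sum was higher in every FL liver. Most of each sum was *Alb*, which had 1118760 to 1511640 in FL and 956556 to 1200270 in WT livers. Every FL liver lay above every WT liver for 2 of the 6, *Ttr* and *Apoa1*, against 2.77% of all tested genes. The groups overlapped for *Alb*, *Fgb*, *Serpina3k* and *Tat*.

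WT replicate 2 and FL replicate 3 stood apart from the other livers of their genotypes. In WT replicate 2, 40.3% of all tested genes were more than 1.5-fold away from the mean of the other WT livers, and in FL replicate 3, 19.2% were that far from the mean of the other FL livers. In these livers the 8 markers of hepatocytes near the central vein summed to 17181 (WT replicate 2) and 24119 (FL replicate 3), against 48646 to 75418 in the other 5 livers. *Cyp2e1* was the largest part of each sum. The 7 of these genes that were tested were each lower in both livers than the mean of the others of their genotype. In WT replicate 2, however, *Rgn* (4545) and *Oat* (1958) were above every FL liver. The 8 markers of hepatocytes near the portal vein summed to 144055 and 154246, against 82826 to 116282. This list includes *Pck1*, and its other 7 genes summed to 91574 and 102286, against 63512 to 85683. Of the 8, 7 were higher in WT replicate 2 than the mean of the other WT livers. The exception, *Cyp2f2*, had 19627 there, the lowest of all livers. All 8 were higher in FL replicate 3 than the mean of the other FL livers. The 10 macrophage markers summed to 18186 and 10900, against 6769 to 8258, and the 8 stellate cell markers to 11297 and 3957, against 2651 to 3037. Much of the stellate difference was in *Col3a1* (4265 and 704, against 174 to 240) and *Col1a1* (1744 and 334, against 61 to 92). All 8 stellate markers were higher in WT replicate 2 than the mean of the other WT livers, and 7 in FL replicate 3 likewise. *Acta2*, however, was highest in WT replicate 1 (76, against 54 in WT replicate 2). The 10 proliferation genes summed to 1652 in WT replicate 2, 561 in FL replicate 3 and 326 to 489 elsewhere. No gene of these lists was at 0 in every liver. The part of these differences in the values below was not tested, and results that rest on these 2 livers are given with and without them.

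Promoters of 4 genes are shown as examples of insulin, cAMP and hypoxia response motifs. In these genes the highest liver was more than 3 times the lowest, and they were chosen after their values were seen. Other genes of the group also hold such motifs. The 250 bases before the RefSeq start are given 5′ to 3′ on the + strand of GRCm38.p6, with the motif in capitals. In *Igfbp1* (chr11:7197537-7197786) the capitals mark CAAAACA, the core of the insulin response element, which begins 108 bases before the start. In *G6pc* (chr11:101367466-101367715) they mark the same core on the opposite strand, 174 bases before the start. In *Pck1* (chr2:173152823-173153072) they mark ACGTCA, the cAMP response core on the opposite strand, 91 bases before the start. In *Slc2a1* (chr4:119108495-119108744) they mark ACGTG, the core bound by hypoxia-inducible factors, 36 bases before the start.
Igfbp1: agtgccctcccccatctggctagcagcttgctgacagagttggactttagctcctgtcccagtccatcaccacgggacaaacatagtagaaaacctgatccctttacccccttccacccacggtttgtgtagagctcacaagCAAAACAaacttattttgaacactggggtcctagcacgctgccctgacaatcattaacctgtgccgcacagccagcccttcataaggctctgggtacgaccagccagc
G6pc: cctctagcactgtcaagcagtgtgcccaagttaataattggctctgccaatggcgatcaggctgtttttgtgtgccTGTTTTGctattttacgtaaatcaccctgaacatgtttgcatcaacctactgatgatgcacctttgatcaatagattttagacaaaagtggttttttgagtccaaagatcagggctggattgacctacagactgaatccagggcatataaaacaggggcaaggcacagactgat
Pck1: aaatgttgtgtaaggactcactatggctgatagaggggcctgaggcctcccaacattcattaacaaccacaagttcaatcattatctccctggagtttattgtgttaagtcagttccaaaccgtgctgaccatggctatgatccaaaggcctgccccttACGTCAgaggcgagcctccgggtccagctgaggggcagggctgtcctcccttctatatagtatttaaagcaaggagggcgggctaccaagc
Slc2a1: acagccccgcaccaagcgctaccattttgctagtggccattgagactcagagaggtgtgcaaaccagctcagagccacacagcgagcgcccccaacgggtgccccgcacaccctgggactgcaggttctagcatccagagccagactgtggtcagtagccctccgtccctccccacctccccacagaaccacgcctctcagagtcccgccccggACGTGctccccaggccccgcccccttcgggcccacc

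Of the 37 genes, 34 had a RefSeq promoter window of 300 bases (250 before to 50 after the start), and *Gys2*, *Insr* and *Ppp1r3b* had none. Counting a gene once however many windows it has, and both strands, CAAAACA was present in 5 of the 34 genes (*G6pc*, *Gckr*, *Igfbp1*, *Irs1* and *Irs2*), or 14.7%, against 7.2% of all genes with a window. The forkhead core GTAAACA was in 0 of the 34 and in 4.05% of all genes, which says only that these letters are not in these windows. ACGTG was in 18 (52.9%), against 21.8% of all genes. The 18 were *Aldoa*, *Gapdh*, *Hk1*, *Hk2*, *Irs1*, *Irs2*, *Khk*, *Ldha*, *Ldhd*, *Pcx*, *Pdhb*, *Pdk2*, *Pfkfb3*, *Pgam1*, *Pgk1*, *Ppp1r3c*, *Pygl* and *Slc2a1*. The E-box CACGTG, which contains ACGTG, was in 9 (26.5%) against 8.09%, and the cAMP core TGACGT was in 5 (14.7%) against 8.37%. The 34 genes had 49 windows, and all 27025 genes with a window had 32851. More windows per gene give more places for a match. A match is a stretch of letters and not a measured binding site.

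None of the 37 genes passed an adjusted p of 0.05 between FL and WT livers, and the smallest adjusted p among them was 0.999 (limma, Benjamini-Hochberg over all 12545 genes). In all, 2 genes passed, or 0.0159%, which were *Trp53* and *Eda2r*. At an unadjusted p under 0.05, 1 of the 37 was counted (*Ldha*, 2.7%), against 3.2% of all tested genes, so the group held no more such genes than the rest. Every FL liver lay above every WT liver in 2 of the 37 (*Pcx* and *Foxo1*, 5.41%), against 2.77% of all tested genes, and every FL liver lay below every WT liver in 1 (*Pgk1*, 2.7%), against 1.98%. The fold changes were positive in 26 and negative in 11, with a median of 0.14. Over all tested genes the median was 0.01 and 51.6% were positive. The 6 hepatocyte markers were all positive, with a median of 0.36, while the 10 macrophage and 8 stellate cell markers were all negative. The part of cell composition in these signs was not tested. Without WT replicate 2, which was the lowest liver for 17 of the 37, the sign changed for 13 of the 37. It changed for 7 without both WT replicate 2 and FL replicate 3.

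These comparisons were of unequal precision. The 95% interval of the log2 fold change lay within a 1.5-fold difference in either direction for 15 of the 37 genes and within a 2-fold difference for 24. *Insr*, the insulin receptor, had the narrowest interval, from -0.20 to 0.22. *Igfbp1* and *Hk2* had the widest, from -0.32 to 2.78 and from -2.15 to 1.25. For the 13 genes whose interval reached past 2-fold, these 7 livers could not show whether the genotypes differed by that much.

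**Figure D1:**
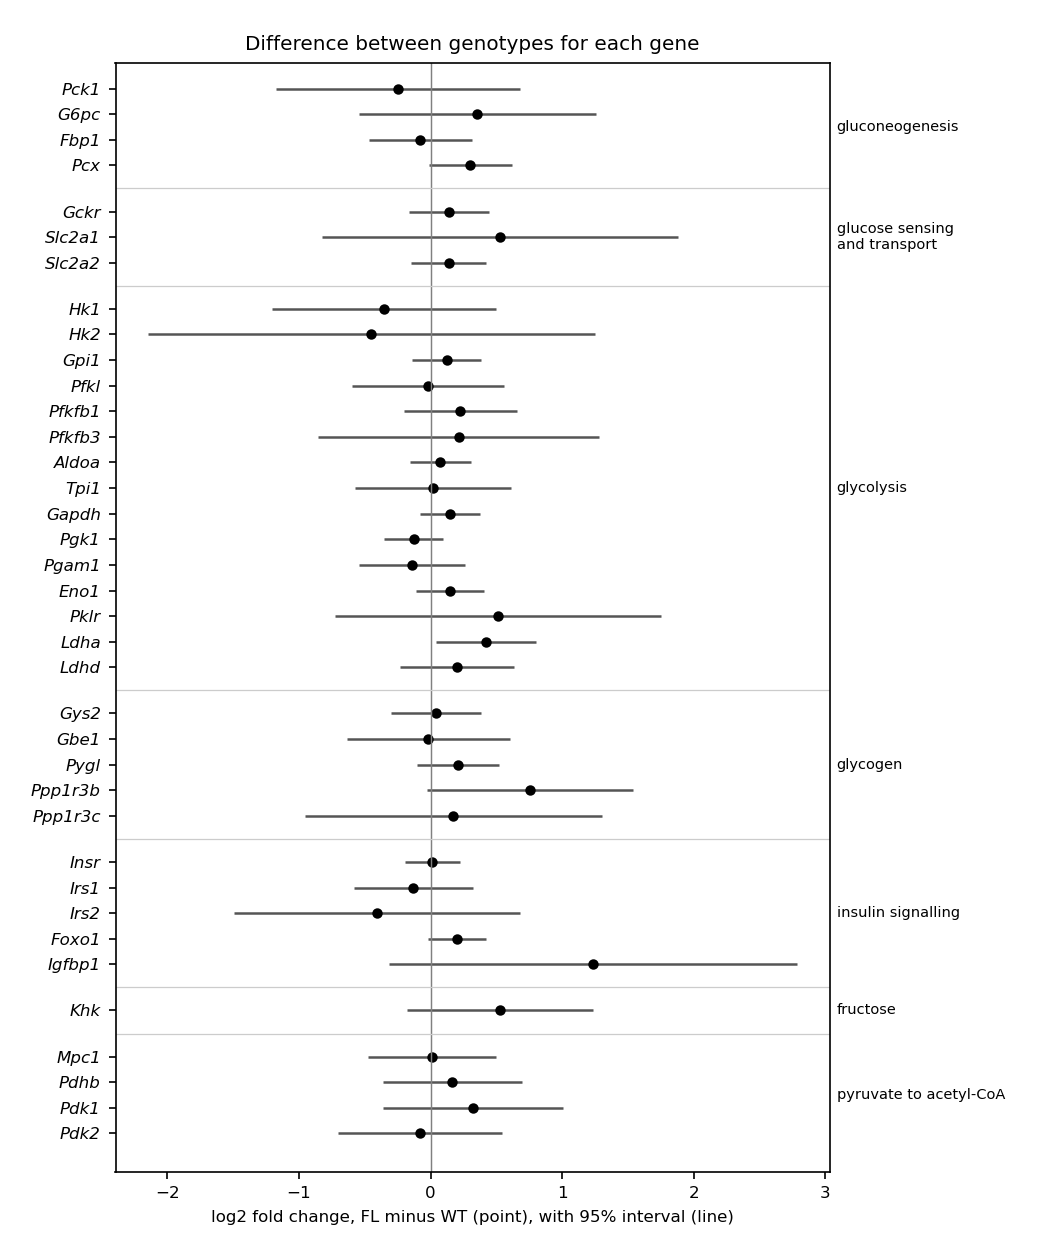
Log2 fold change between FL and WT livers (x axis, FL minus WT) for each of the 37 genes (y axis, grouped by role). Points are limma estimates from 4 FL and 3 WT livers and lines are 95% intervals; the interval of *Ldha* (0.04 to 0.80) lies wholly above 0 and those of the other 36 include 0.

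The ratio of the highest to the lowest of the 7 livers, genotypes together, had a median of 1.79 over the 37 genes and of 1.65 over all tested genes. It was at least 4 in 6 of them, *Igfbp1*, *Hk2*, *Slc2a1*, *Pklr*, *Irs2* and *Ppp1r3c*. WT replicate 2 was the highest liver for 9 genes and the lowest for 17, so that it held an extreme for 70.3% of the group, beside 65.6% of all tested genes. It deviated more than 1.5-fold from the other WT livers in 20 of the 37 (54.1%), and FL replicate 3 from the other FL livers in 12 (32.4%), each above the share over all tested genes given above. Both livers deviated in the same direction from their own groups in 30 of the 37 genes (81.1%), against 79.8% of all tested genes. In 12 of the 37 (32.4%) both deviations exceeded 1.5-fold in the same direction, against 15.3% of all tested genes. *Pck1*, *Hk2*, *Pfkl*, *Tpi1* and *Pdk2* were higher in both livers. *G6pc*, *Slc2a1*, *Pfkfb3*, *Pklr*, *Igfbp1*, *Khk* and *Pdk1* were lower in both.

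Across the 37 genes the deviations of the 2 livers had a Pearson correlation of 0.88 and a Spearman correlation of 0.87, and across all tested genes the Pearson correlation was 0.77. These are descriptions across genes of the same 2 livers, and genes are not independent replicates. The genes at the ends of this relation came from different roles. For *Igfbp1* the log2 deviations were -2.21 in WT replicate 2 and -1.86 in FL replicate 3, for *Slc2a1* -2.09 and -1.45, and for *Pklr* -2.03 and -1.14. For *Hk2* they were 2.29 and 1.79, and for *Pck1*, where FL replicate 3 moved further, 0.74 and 0.97.

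**Figure D2:**
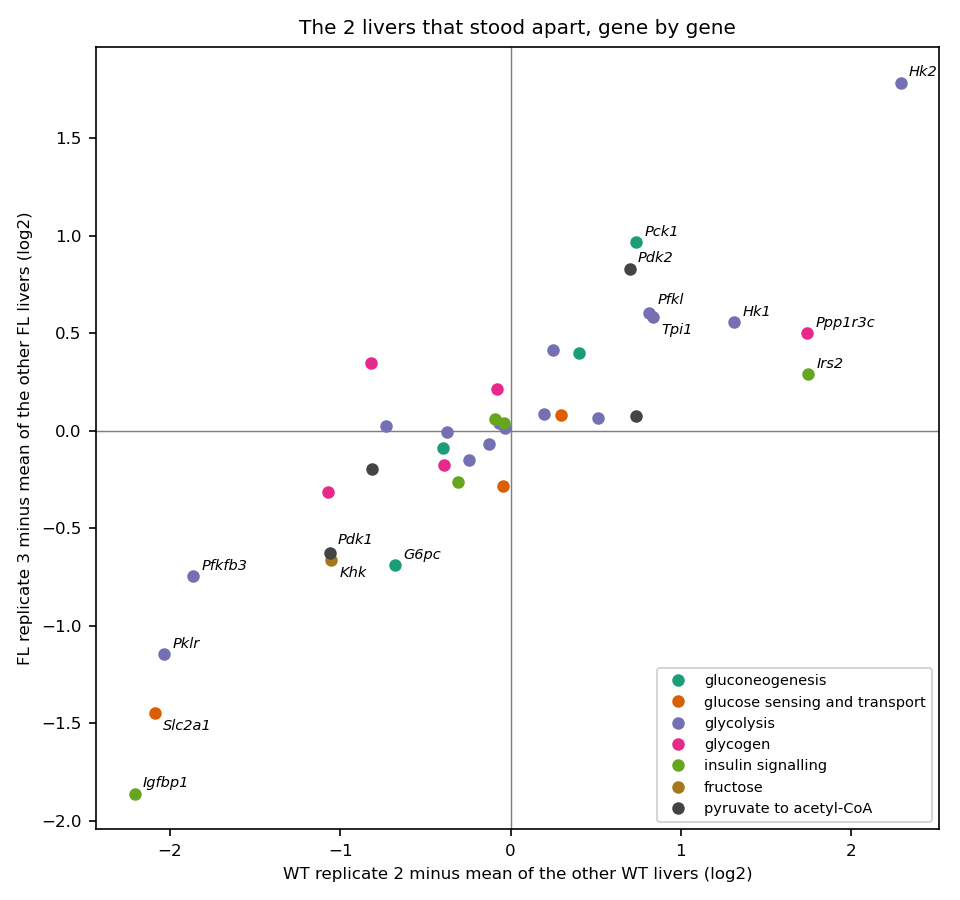
Deviation of WT replicate 2 from the mean of the other WT livers (x axis, log2) against the deviation of FL replicate 3 from the mean of the other FL livers (y axis, log2), 1 point per gene, coloured by role. Of the 37 genes, 30 lie in the quadrants where both livers deviate the same way, with *Igfbp1*, *Slc2a1* and *Pklr* at the low end and *Hk2* at the high end.

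**Figure D3:**
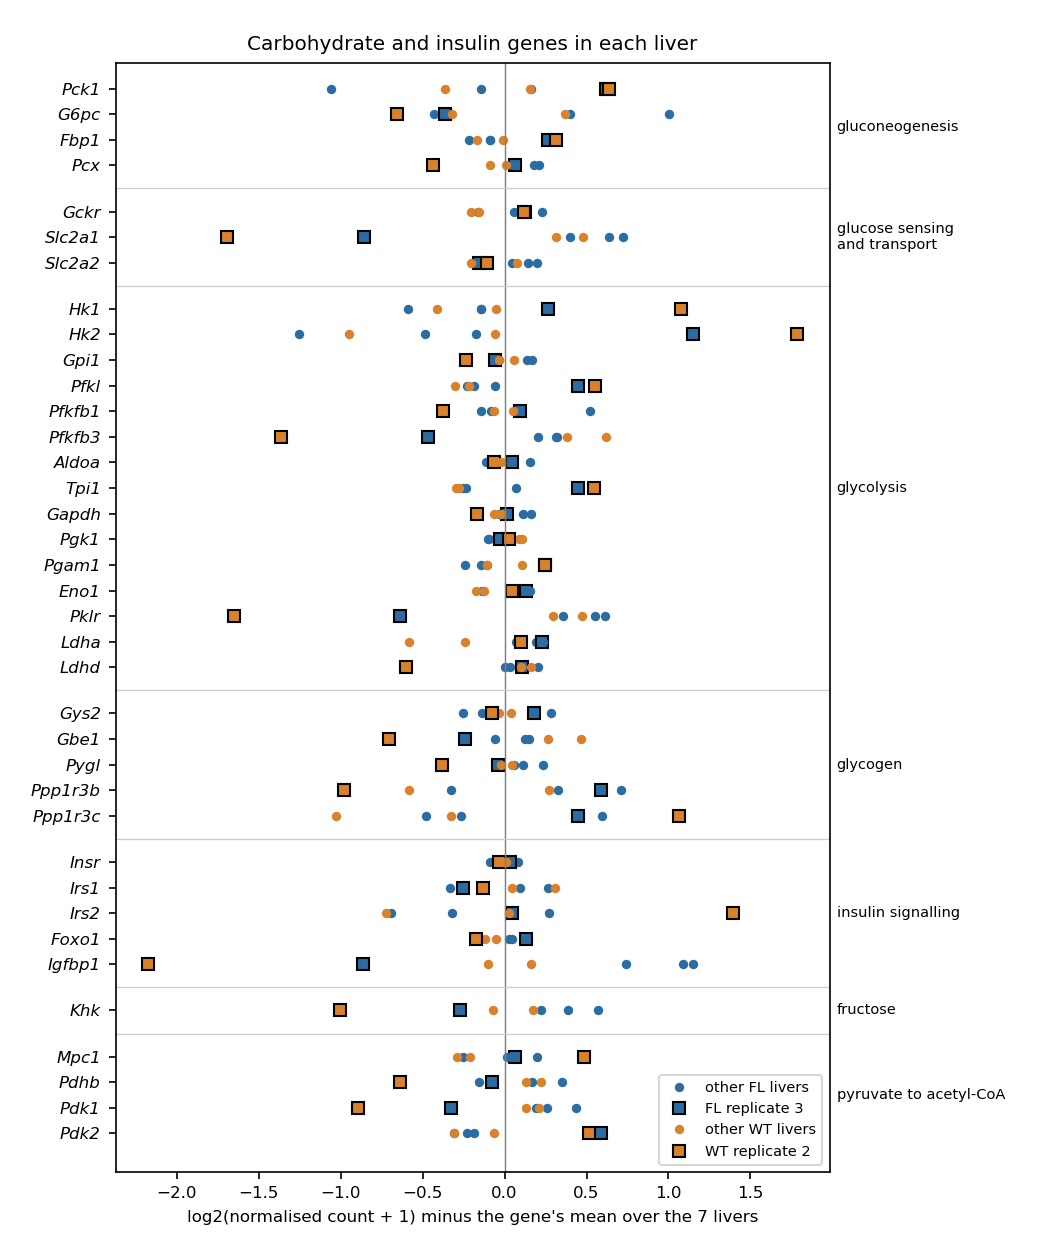
Level of each gene in each liver (x axis, log2(normalised count + 1) minus the gene's mean over the 7 livers) by gene and role (y axis); squares mark WT replicate 2 and FL replicate 3 and circles the other livers. For *Slc2a1*, *Pklr* and *Igfbp1* the squares lie below every circle, and for *Hk2* and *Pck1* above every circle.

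Per kilobase of exon, the levels averaged over the 7 livers spanned from 8.74 for *Hk2*, the insulin-responsive hexokinase of muscle and fat, to 13964 for *Igfbp1*. The order at the top differed by genotype, since *Igfbp1* had 18155 in FL and 8376 in WT livers, where *Pck1* (11317) and *Fbp1* (10281) were higher. At the bottom *Hk2* was below *Hk1* in FL livers (7.04 against 7.50) and above it in WT livers (11.0 against 10.4), differences within the spread between livers. Gluconeogenic genes were high, with 10536 for *Pck1*, 9965 for *Fbp1*, 3360 for *G6pc* and 2783 for *Pcx*, and *Khk* had 4293. The hexokinases of other tissues, *Hk1* at 8.76 and *Hk2*, were the lowest of the group. Mean levels of both hexokinases and of *Irs1* (14.8) and *Irs2* (36.2) were all lower than that of *Insr* (103).

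**Figure D4:**
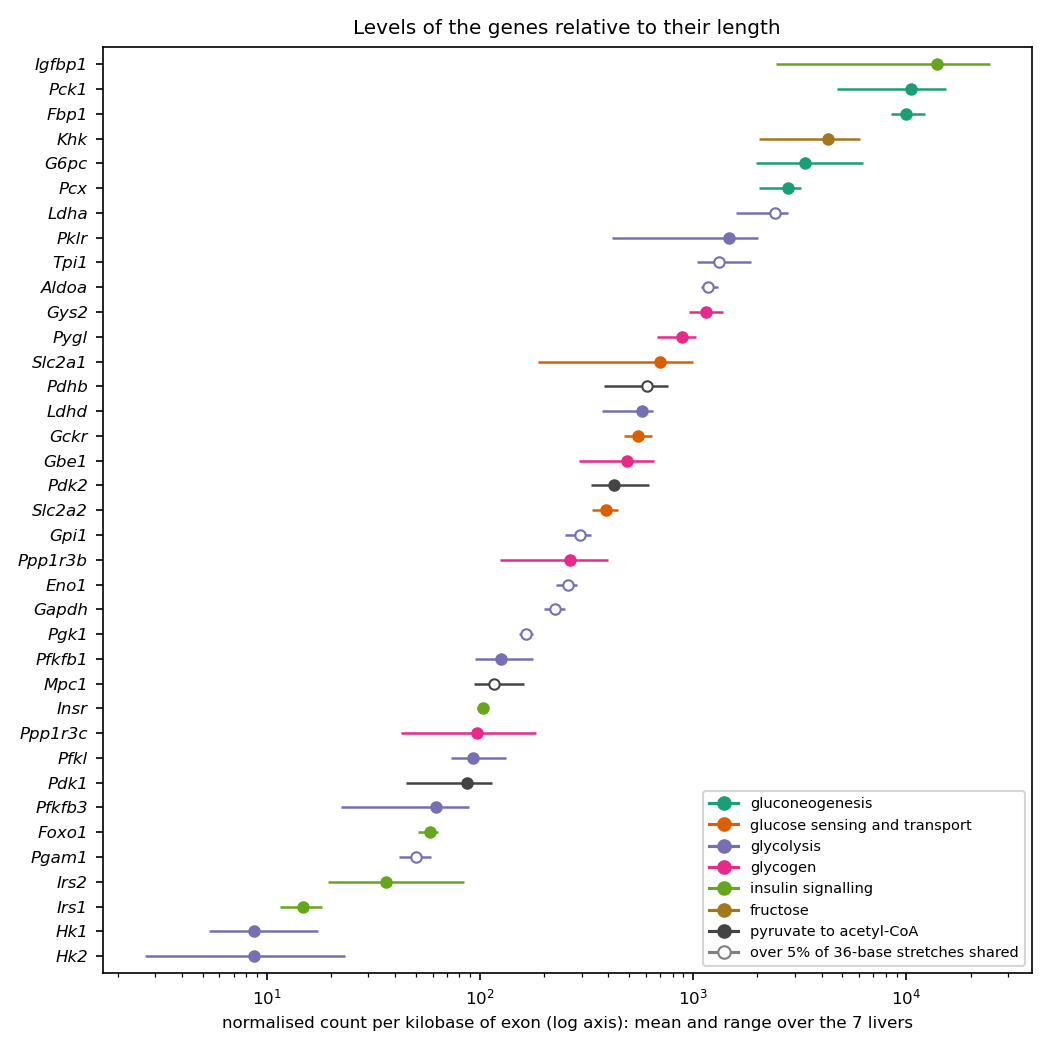
Normalised count per kilobase of exon (x axis, log scale) for each gene (y axis, ordered by mean), with the mean over the 7 livers as a point and their range as a line, coloured by role. *Igfbp1* (13964), *Pck1* (10536) and *Fbp1* (9965) lead in the mean over all livers, *Pck1* and *Fbp1* being above *Igfbp1* in WT livers alone, *Hk1* and *Hk2* are lowest, and open points mark genes with over 5% of 36-base stretches shared with other genes, whose levels may be understated.

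Some levels carry a further uncertainty from shared sequence. Of the 36-base stretches in the transcripts of *Pgk1*, 54.5% also occur in other genes, mainly the retrogene *Pgk1-rs7*. The share was 36.9% for *Pgam1*, 27.9% for *Eno1*, 26.6% for *Gapdh*, 16.5% for *Ldha*, 15.3% for *Pdhb*, 13.5% for *Aldoa*, 12.2% for *Gpi1*, 12.1% for *Mpc1* and 8.15% for *Tpi1*, and under 1% for the other 27. Reads from such stretches may have been divided between copies or left uncounted. Exons of *Ldhd*, *Irs1*, *Mpc1*, *Pklr*, *Gpi1* and *Foxo1* overlap an exon of a gene on the opposite strand over 42.2%, 30.9%, 23.1%, 22.0%, 11.5% and 7.78% of their length, and the strand setting of the counting is not given in the sources used here.

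Among the gluconeogenic genes, *Pcx* was the one whose groups did not overlap. It encodes pyruvate carboxylase, which turns pyruvate into oxaloacetate in mitochondria, and lies on chromosome 19 from 4510472 to 4621752 (GRCm38, as for all coordinates here). Its normalised counts were 14827, 15178, 13715 and 13677 in FL and 13163, 9697 and 12349 in WT livers. The lowest FL liver was thus 13677 and the highest WT liver 13163. The log2 fold change was 0.30 (SE 0.14, unadjusted limma p = 0.0588, adjusted p = 0.999, exact permutation p = 0.0286). The exact test was two-sided over the 35 ways to place the 7 livers, and 0.0286 is the smallest value possible with 4 and 3 livers. It was 0.19 with WT replicate 2 and FL replicate 3 left out, and 0.17 with WT replicate 2 alone left out.

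*Pck1* encodes the cytosolic phosphoenolpyruvate carboxykinase, the enzyme after pyruvate carboxylase. Its normalised counts were 16203, 37720, 51960 and 30599 in FL and 26262, 52481 and 37672 in WT livers. The 2 livers that stood apart were its 2 highest, and the groups overlapped widely. Its log2 fold change was -0.25 with a 95% interval from -1.18 to 0.68. *G6pc* encodes the catalytic subunit of glucose-6-phosphatase, the last step of glucose release. It had 5566, 15062, 5826 and 9886 in FL and 6002, 4761 and 9671 in WT livers. WT replicate 2 was its lowest liver and FL replicate 3 was among the 3 lowest, opposite to *Pck1*. *Fbp1*, fructose-1,6-bisphosphatase, was closer between livers, at 16557 ± 2522 in 4 FL and 17499 ± 3055 in 3 WT livers (mean ± SD).

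Within a wider list of 20 gluconeogenesis genes, 19 were tested, 11 were higher and 8 lower in FL livers, and the median log2 fold change was 0.04. None passed the adjusted threshold, and 1 had an unadjusted p under 0.05 (5.26%, against 3.2%). This was *Slc37a4*, the transporter that brings glucose-6-phosphate to glucose-6-phosphatase, with 4574, 5150, 4957 and 6026 in FL and 4314, 3536 and 4552 in WT livers. All FL livers lay above all WT livers for this gene and for *Gcgr*, the glucagon receptor (5638 ± 183 in 4 FL and 5066 ± 321 in 3 WT livers, mean ± SD). The log2 fold changes of these genes were 0.33 and 0.16 (limma adjusted p = 0.999 for each). Counting *Pcx* as well, such genes were 15.8% of those tested in this list, against 2.77% of all tested genes. *Fbp2*, the muscle form of *Fbp1*, was too low to be tested, with 2 to 6 in FL and 10 to 12 in WT livers.

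Glucose transporters and sensors followed. *Slc2a2* encodes GLUT2, the main glucose transporter of hepatocytes (chromosome 3, 28697903 to 28731359). Its normalised counts were 2310, 2472, 2010 and 2560 in FL and 1939, 2075 and 2360 in WT livers. The groups overlapped, and the highest liver was 1.32 times the lowest. FL minus WT on the log2 scale was 0.14 (SE 0.12, unadjusted limma p = 0.30, adjusted p = 0.999, exact permutation p = 0.257), 0.19 without the 2 livers that stood apart, and from 0.073 (without WT replicate 1) to 0.21 (without WT replicate 3) with 1 liver left out.

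*Slc2a1* encodes GLUT1, the glucose transporter of most other cell types (chromosome 4, 119108711 to 119137983). It had 3514, 3309, 1170 and 2800 in FL and 2644, 657 and 2964 in WT livers. FL replicate 3 and WT replicate 2 were far below the other 5 livers. The log2 fold change of 0.52 (95% interval -0.83 to 1.88) was 0.19 without both of these livers and -0.17 without WT replicate 2 alone. *Gckr* encodes a regulatory protein of glucose use in hepatocytes, and had 2481 ± 276 in 4 FL and 2248 ± 276 in 3 WT livers (mean ± SD). Of 9 glucose transporters, 7 were tested, with 4 higher and 3 lower. Among them *Slc2a4* (GLUT4 of muscle and fat) had 9, 15, 25 and 19 in FL and 5, 8 and 4 in WT livers, values too low for a precise fold. *Slc2a10*, a minor transporter, was at 0 to 2 in FL and 4 to 5 in WT livers and was not tested.

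Glycolysis held the gene with the smallest p of the group. *Ldha* encodes the lactate dehydrogenase subunit that favours lactate formation (chromosome 7, 46841475 to 46855627). Its normalised counts were 8237, 8988, 9219 and 9240 in FL and 6651, 8426 and 5245 in WT livers. The FL livers were close together, and only WT replicate 2 reached into their range. The log2 fold change was 0.42 (SE 0.16, 95% interval 0.04 to 0.80, unadjusted limma p = 0.0327, adjusted p = 0.999, exact permutation p = 0.0571), and its p ranked 265 among the 12545 genes. It was 0.58 without WT replicate 2 and FL replicate 3 (limma adjusted p = 0.154) and 0.25 without WT replicate 3 alone. *Ldhd*, the dehydrogenase of D-lactate, had 3204 ± 198 in 4 FL and 2862 ± 762 in 3 WT livers (mean ± SD).

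*Pgk1*, phosphoglycerate kinase (chromosome X, 106187100 to 106203699), was the 1 gene whose FL livers all lay below the WT livers. It had 345, 343, 362 and 370 in FL and 391, 376 and 397 in WT livers. The gap between the groups, 370 against 376, was small beside the spread within them. Its log2 fold change was -0.13 (SE 0.10, unadjusted limma p = 0.222, adjusted p = 0.999, exact permutation p = 0.0571) and -0.16 without the 2 livers that stood apart. Of its neighbours in the pathway, *Pgam1* after it also had a negative fold change (-0.14) and *Gapdh* before it a positive one. *Gapdh*, glyceraldehyde-3-phosphate dehydrogenase (chromosome 6, 125161715 to 125166467), had 905, 1003, 935 and 1038 in FL and 885, 824 and 912 in WT livers. FL replicate 1 lay within the WT range. FL minus WT on the log2 scale was 0.15 (SE 0.10, unadjusted limma p = 0.166, adjusted p = 0.999, exact permutation p = 0.0857).

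*Eno1*, enolase (chromosome 4, 150236721 to 150248879), had 1258, 1489, 1511 and 1538 in FL and 1225, 1427 and 1267 in WT livers. All FL livers except replicate 1 lay above every WT liver. The log2 fold change was 0.15 (SE 0.11, unadjusted limma p = 0.228, adjusted p = 0.999, exact permutation p = 0.200). *Pfkfb1* encodes the liver enzyme that makes and removes fructose-2,6-bisphosphate, the switch between glycolysis and gluconeogenesis (chromosome X, 150588229 to 150643878). It had 450, 469, 529 and 712 in FL and 475, 382 and 515 in WT livers. FL replicate 4 was the highest and the other 3 FL livers mixed with the WT livers. Its log2 fold change was 0.23 (SE 0.19, unadjusted limma p = 0.261, adjusted p = 0.999, exact permutation p = 0.400).

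Without WT replicate 2 and FL replicate 3, the log2 fold changes of *Gapdh*, *Eno1* and *Pfkfb1* were 0.13, 0.19 and 0.10, and that of *Pfkfb1* was 0.085 without FL replicate 4 alone. *Pklr*, the liver pyruvate kinase induced by carbohydrate feeding (chromosome 3, 89136142 to 89146784), had 6491, 6206, 2726 and 5430 in FL and 5877, 1352 and 5213 in WT livers. The 2 livers that stood apart were its lowest by a wide margin, and the other 5 overlapped. Its log2 fold change was 0.51 (95% interval -0.72 to 1.75), 0.12 without both livers and -0.16 without WT replicate 2 alone. *Hk2* showed the opposite order (chromosome 6, 82725025 to 82774454), with 35, 28, 89 and 16 in FL and 38, 139 and 20 in WT livers. *Hk1*, the hexokinase of most other cells, had 46 to 84 in FL and 52 to 148 in WT livers, with WT replicate 2 highest.

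*Pfkl*, the liver phosphofructokinase, had 514 to 821 in FL and 488 to 884 in WT livers. *Tpi1*, triosephosphate isomerase, had 2957 to 4797 and 2866 to 5138. In both genes the highest value of each genotype came from FL replicate 3 and WT replicate 2. *Pfkfb3*, an inducible isoenzyme of *Pfkfb1*, had 314 to 542 and 168 to 669, with the same 2 livers lowest. The other enzymes varied less between livers. *Aldoa*, an aldolase, had 3489 ± 265 in 4 FL and 3306 ± 51.5 in 3 WT livers (mean ± SD). *Gpi1*, glucose-6-phosphate isomerase, had 1971 ± 159 and 1812 ± 182, and *Pgam1*, phosphoglycerate mutase, had 95 ± 15.1 and 105 ± 13.1, over the same livers. Of a wider list of 33 glycolysis genes, 32 were tested, with 19 higher and 13 lower, a median of 0.07 and 0 past the adjusted threshold (limma). *Ldha* was the 1 with an unadjusted p under 0.05 (3.12%, against 3.2% of all tested genes).

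Among the 5 glycogen genes the largest log2 fold change was that of *Ppp1r3b*, which encodes the liver subunit that brings protein phosphatase 1 to glycogen and so activates glycogen synthase (chromosome 8, 35375739 to 35388139). It had 1906, 1210, 2281 and 2488 in FL and 1012, 770 and 1832 in WT livers. WT replicate 3 lay within the FL range and WT replicate 2 was lowest. The FL mean was 1.64 times the WT mean, and the log2 fold change was 0.76 (SE 0.34, unadjusted limma p = 0.0564, adjusted p = 0.999, exact permutation p = 0.143). Without WT replicate 2 and FL replicate 3 it was 0.40, and without WT replicate 2 alone 0.48. *Pygl*, the liver glycogen phosphorylase (chromosome 12, 70190811 to 70231488), had 6307, 6559, 5901 and 7138 in FL and 6251, 4667 and 5976 in WT livers. FL replicate 3 lay below 2 WT livers. FL minus WT on the log2 scale was 0.21 (SE 0.13, unadjusted limma p = 0.159, adjusted p = 0.999, exact permutation p = 0.171), 0.12 without the 2 livers that stood apart and 0.08 without WT replicate 2 alone.

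*Gys2*, the liver glycogen synthase, had 3089 ± 543 in 4 FL and 2973 ± 122 in 3 WT livers (mean ± SD). *Gbe1*, the branching enzyme, had 2141 to 2809 in FL and 1555 to 3498 in WT livers, with WT replicate 2 lowest of all 7. Its log2 fold change was -0.02 with all livers and -0.30 without both livers that stood apart. *Ppp1r3c*, another glycogen-targeting subunit (chromosome 19, 36731731 to 36736653), had 197, 170, 325 and 359 in FL and 116, 497 and 189 in WT livers. WT replicate 2 was its highest liver and WT replicate 1 its lowest, so the WT range enclosed the FL range. Of 28 listed glycogen genes 26 were tested, with 12 higher and 14 lower, and the median was -0.01. Every FL liver lay below every WT liver in 3.85% of those tested, against 1.98% of all tested genes. *Gyg*, glycogenin, the protein that primes glycogen, was the 1 of the 26 with an unadjusted p under 0.05 (3.85%, against 3.2%). It had 88, 104, 114 and 98 in FL and 128, 212 and 139 in WT livers, and its groups did not overlap (log2 fold change -0.63, unadjusted limma p = 0.0153, adjusted p = 0.999, exact permutation p = 0.0286).

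In insulin signalling the receptor itself varied little, with the highest liver 1.13 times the lowest. *Insr* had 1333 to 1501 in FL and 1385 to 1426 in WT livers, and the difference on the log2 scale was 0.01. *Foxo1*, the transcription factor that insulin restrains (chromosome 3, 52268336 to 52353221), had 517, 553, 549 and 510 in FL and 462, 443 and 484 in WT livers. The lowest FL liver was 510 and the highest WT liver 484. The log2 fold change was 0.20 (SE 0.10, unadjusted limma p = 0.0703, adjusted p = 0.999, exact permutation p = 0.0286) and 0.15 without WT replicate 2 and FL replicate 3. *Irs1*, an adaptor of the insulin receptor, had 106 to 161 in FL and 122 to 166 in WT livers. *Irs2*, the adaptor that FOXO1 induces in fasting (chromosome 8, 10984681 to 11008458), had 162, 244, 209 and 125 in FL and 122, 534 and 206 in WT livers. WT replicate 2 was more than 2 times any other liver, while FL replicate 3 lay inside the FL range.

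*Igfbp1*, the insulin-repressed binding protein for insulin-like growth factors (chromosome 11, 7197782 to 7202546), had the largest log2 fold change of the 37. Its normalised counts were 28205, 35820, 9253 and 37469 in FL and 18842, 3730 and 15750 in WT livers. FL replicates 1, 2 and 4 lay above all WT livers, FL replicate 3 lay below 2 WT livers, and WT replicate 2 was lowest. The FL mean was 2.17 times the WT mean, with a log2 fold change of 1.23 (SE 0.67, unadjusted limma p = 0.104, adjusted p = 0.999, exact permutation p = 0.200). Without WT replicate 2 and FL replicate 3 it was 0.96 (limma adjusted p = 0.0849), the smallest adjusted p of any of the 37 genes under any alternative, and without WT replicate 2 alone it was 0.50. Of the 5 genes with the insulin response core, *Igfbp1*, *G6pc* and *Irs1* were lower in WT replicate 2 and FL replicate 3 than the mean of the other livers of the same genotype, and *Irs2* and *Gckr* were higher in both.

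**Figure D5:**
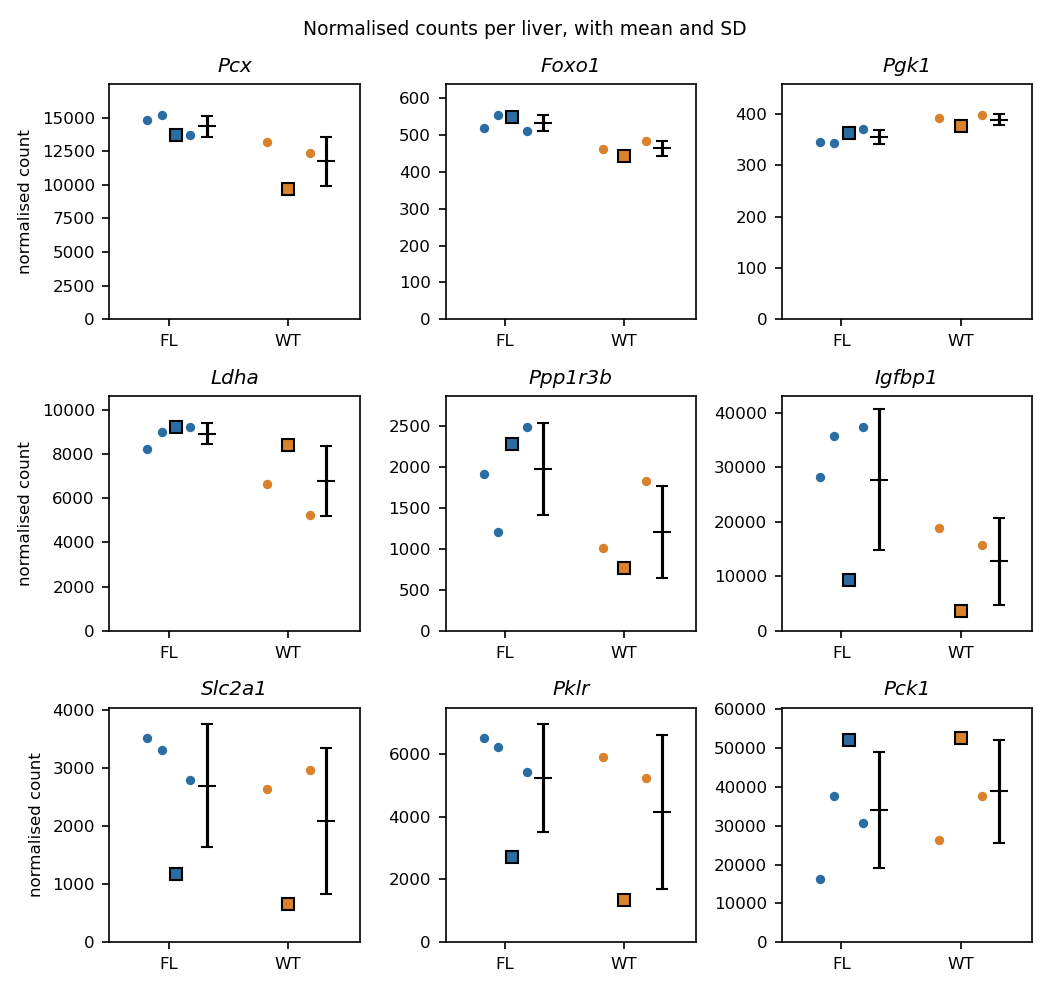
Normalised counts (y axis, from 0) in each FL (blue) and WT (orange) liver for 9 genes; squares mark FL replicate 3 and WT replicate 2, and the bar beside each group is the mean with 1 SD (n = 4 and n = 3). The groups of *Pcx*, *Foxo1* and *Pgk1* do not overlap, and for *Igfbp1*, *Slc2a1* and *Pklr* the squares are the lowest livers of both genotypes.

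Of a wider list of 33 insulin signalling genes 32 were tested, with 16 higher and 16 lower in FL livers and a median of 0.00. None passed the adjusted threshold (limma), 3 had an unadjusted p under 0.05 (9.38%, against 3.2% of all tested genes), 4 had every FL liver above every WT liver (12.5%, against 2.77%) and 2 every FL liver below (6.25%, against 1.98%). *Foxo3*, a relative of *Foxo1* that insulin also restrains, had 361, 443, 456 and 359 in FL and 492, 677 and 670 in WT livers (log2 fold change -0.59). *Grb10*, an adaptor that inhibits the insulin receptor, had 112, 98, 113 and 96 in FL and 138, 193 and 149 in WT livers (-0.60). *Srebf1*, the lipogenic factor that insulin induces, had 2150, 2376, 3447 and 2118 in FL and 1576, 2034 and 1591 in WT livers (0.52). In each of these 3 genes the groups were separate (exact permutation p = 0.0286, limma adjusted p = 0.999), with *Foxo3* and *Grb10* lower and *Srebf1* higher in FL livers. *Pik3r1*, the regulatory subunit of PI3-kinase, had 900 to 1008 in FL and 800 to 882 in WT livers.

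*Khk*, ketohexokinase, the first enzyme of fructose use in liver (chromosome 5, 30921431 to 30931248), had 8551, 9590, 6085 and 10871 in FL and 8256, 3655 and 6988 in WT livers. WT replicate 2 was lowest and FL replicate 3 second lowest. Its log2 fold change was 0.53 (SE 0.31, unadjusted limma p = 0.123, adjusted p = 0.999, exact permutation p = 0.200), 0.34 without both and 0.18 without WT replicate 2 alone. Of 9 listed fructose genes, 6 were higher and 3 lower, and in all 9 WT replicate 2 and FL replicate 3 deviated in the same direction from their groups, as they did in 79.8% of all tested genes.

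Between pyruvate and acetyl-CoA, *Mpc1*, a subunit of the mitochondrial pyruvate carrier, had 200 to 274 in FL and 195 to 334 in WT livers. *Pdhb*, a subunit of pyruvate dehydrogenase, had 2442 ± 396 in 4 FL and 2231 ± 656 in 3 WT livers (mean ± SD). The kinases that inactivate this enzyme deviated in opposite directions in the livers that stood apart. *Pdk1*, which hypoxia induces in many cells, had 519 to 884 in FL and 351 to 755 in WT livers, with FL replicate 3 and WT replicate 2 lowest in their groups. *Pdk2*, the main isoform of liver, had 1048 to 1954 and 1049 to 1852, with the same livers highest in their groups. Of 13 listed genes of this step 12 were tested, with 8 higher and 4 lower, a median of 0.03 and 0 with an unadjusted p under 0.05.

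Of 11 listed genes that link p53 to metabolism, some of them outside glucose use, 10 were in the table and tested. Of these, 6 were higher and 4 lower, with a median of 0.01, and 0 had an unadjusted p under 0.05. *Tigar*, a p53 target that lowers fructose-2,6-bisphosphate, had 364, 391, 312 and 349 in FL and 391, 295 and 375 in WT livers, and the log2 fold change was 0.01. The FL and WT livers of *Tigar* covered nearly the same range. Of 12 hypoxia-responsive genes outside glycolysis 11 were tested, with 7 higher and 4 lower and 0 with an unadjusted p under 0.05. *Egln1*, a prolyl hydroxylase that destabilises hypoxia-inducible factors, had 652 ± 14.7 in 4 FL and 593 ± 36.2 in 3 WT livers (mean ± SD), and its groups did not overlap. Every FL liver lay above every WT liver in 9.09% of this list, against 2.77% of all tested genes.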

How the data were processed

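Polyadenylated liver RNA of 4 FL and 3 WT mice was sequenced from stranded libraries. Per the labels and the methods of the study, the authors used bcl2fastq version 2.15.0.4, aligned paired reads with TopHat2 version 2.0.13 and Bowtie2 version 2.2.6.0 to the mouse genome (Ensembl release 75), used HTSeq to count them by gene and scaled the counts with DESeq2; the submitters' notes also name featureCounts. The deposited values are normalised counts that the authors rounded to whole numbers, handled here as a score and not as counts, so no count test was run. The number of per-sample columns left unused was 0. Of 14988 rows, 14851 were distinct identifiers.

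The genotype comparison used limma (version 3.58.1, lmFit and eBayes with a trend) under R 4.3.3, two-sided, on log2(value + 1) of the 12545 genes averaging 10 or more, with Benjamini-Hochberg adjustment at 0.05. Exact permutation tests took the absolute difference of mean log2 values over all 35 ways to place the 7 livers. Both were tested on simulated data. The reads behind each liver, 11.9 to 19.5 M, were estimated from the spacing of low values, and intervals from them would cover counting error only. Livers of 1 genotype differed with a chi-square per degree of freedom of 10.2 to 140, more than counting error alone gives. So no pair within a genotype was 1 library sequenced again. This cannot exclude a second preparation from 1 liver, and pairs across genotypes were not compared. Shared 36-base stretches and overlaps came from GENCODE vM21 (GRCm38) and promoters from RefSeq (GRCm38.p6). Other steps ran in Python 3.11.15 with SciPy 1.17.1, NumPy 2.4.6, pandas 2.3.3 and Matplotlib 3.10.9.

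The 37 genes, the wider lists and the motifs were chosen with earlier results of these data known. Every one of the 37 is named. Given in full are genes that passed the threshold (none), genes whose groups do not overlap, genes with an unadjusted p under 0.05, and the next by p up to 12; genes whose highest liver is at least 4 times the lowest have every liver's value. Genes of wider lists are named, at most 5 per list, where groups do not overlap or the unadjusted p is under 0.05; *Tigar* and *Eda2r* were named after their values were seen. The alternatives were pseudocounts of 0.5 and 5, no filter, at least 10 in every liver, quantile and upper quartile scaling, no trend, robust hyperparameters, array weights, a replicate block, and leaving out each liver or both livers that stood apart.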

Additional observations from a re-analysis of the deposited data

Results flagged for a closer look

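*Pdk2*, a pyruvate dehydrogenase kinase, stood out in 1 liver: FL replicate 3 had 1954 normalised counts against 1048 to 1141 in the other 3 FL livers. Its gap to the nearest of these was 0.897 of the range of the FL livers, above the 95% critical value of Dixon's test for 4 samples. The WT liver that stood apart, WT replicate 2, had 1852 against 1049 and 1239 in the others, but groups of 3 were not examined in this way. The FL livers of all 37 genes were examined, 1 was picked out, and 1.85 would be expected by chance at 1 in 20.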

How the results depend on the processing

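Of the 37 genes, 0 passed the adjusted threshold under each of the 18 alternatives run (limma), and 0 to 6 had an unadjusted p under 0.05, with 6 under array weights and 4 without both livers that stood apart. The sign of the fold change was the same under every alternative for 18 genes and changed under at least 1 for 19, none of which passed a threshold. The count over all tested genes, 2, was 0 with a pseudocount of 5 (404 at an unadjusted p under 0.05), 0 with at least 10 in every liver (356), 0 without a trend (465), 1 with quantile normalisation (410), 5 with array weights (1512) and 6 without WT replicate 2 and FL replicate 3 (1215), and from 0 to 5 when each liver was left out in turn (246 to 747); the cause was not tested. Leaving out both livers was added after earlier results of these data had been seen. With the replicate block 0 of all tested genes passed (110 at an unadjusted p under 0.05) and 0 of the 37. The labels number the livers within each genotype and name no pairs. Across genes, 2 livers that share a number deviated from their groups with correlations of 0.438, -0.483 and -0.661. These cannot show whether livers were paired, since the 2 livers that stood apart carry different numbers. Quantile normalisation moved the median log2 fold change of all tested genes by 0.0039 and upper quartile rescaling by -0.031. With quantile normalisation the sign changed for *Tpi1* (-0.034), *Gys2* (-0.013) and *Insr* (-0.028). With upper quartile rescaling the sign changed for *Tpi1* (-0.012), *Insr* (-0.019) and *Mpc1* (-0.020). With array weights the sign changed for *Hk2* (0.17), *Pfkl* (0.11), *Pfkfb3* (-0.20), *Ldhd* (-0.038), *Irs2* (0.074) and *Pdhb* (-0.087). With the replicate block the sign changed for *Pfkl* (0.041), *Tpi1* (-0.003) and *Ppp1r3c* (-0.001). Without both livers that stood apart the sign changed for *Pfkl* (0.10), *Pfkfb3* (-0.22), *Ldhd* (-0.051), *Gys2* (-0.041), *Insr* (-0.011), *Irs2* (0.10) and *Pdhb* (-0.058). Leaving out 1 liver at a time changed the sign at least once for *Pck1* (from -0.50 to 0.069), *Fbp1* (from -0.18 to 0.057), *Slc2a1* (from -0.17 to 0.91), *Hk1* (from -0.66 to 0.083), *Hk2* (from -1.06 to 0.31), *Pfkl* (from -0.18 to 0.25), *Pfkfb3* (from -0.41 to 0.59), *Tpi1* (from -0.13 to 0.30), *Pklr* (from -0.16 to 0.90), *Ldhd* (from -0.044 to 0.34), *Gys2* (from -0.050 to 0.13), *Gbe1* (from -0.37 to 0.21), *Ppp1r3c* (from -0.29 to 0.75), *Insr* (from -0.014 to 0.043), *Irs2* (from -0.88 to 0.18), *Mpc1* (from -0.13 to 0.26), *Pdhb* (from -0.11 to 0.32), *Pdk1* (from -0.031 to 0.52) and *Pdk2* (from -0.29 to 0.15). With all livers *Tpi1*, *Gys2*, *Insr* and *Mpc1* had fold changes of 0.02, 0.04, 0.01 and 0.01. With 4 and 3 livers the 95% intervals of *Igfbp1*, *Hk2*, *Slc2a1* and *Pklr* extended past 2-fold, and fold changes larger than 2-fold could also go uncalled, as that of *Igfbp1* did. Counting error at 11.9 to 19.5 M estimated reads was not compared with the spread between livers gene by gene.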

Other observations

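Genes that feeding induces in liver through insulin and carbohydrate had positive fold changes in most cases. The size of their median depended on which livers were kept. Of 9 such genes, 8 were higher and 1 lower with all 7 livers, with a median log2 fold change of 0.46. An unadjusted p under 0.05 was found for 2 (22.2%, against 3.2% of all tested genes), and 0 passed the adjusted threshold (limma). WT replicate 2 was the lowest of the 7 livers in 6 of the 9 genes, and their sum was 11719 there, 25704 and 21004 in the other WT livers and 21320 to 28221 in FL livers. Without WT replicate 2 the list had 6 higher and 3 lower and a median of 0.14. Without WT replicate 2 and FL replicate 3 it had 9 higher and a median of 0.26. The fit without both livers was added after the data had been seen, and this list was summarised under no other alternative. *Acaca*, acetyl-CoA carboxylase, had 684, 752, 743 and 857 normalised counts in FL and 607, 521 and 521 in WT livers, and its groups did not overlap (log2 fold change 0.46, standard error 0.12, limma adjusted p = 0.999, exact permutation p = 0.0286). *Srebf1*, described above, was the other. Every FL liver lay above every WT liver in these 2 genes (22.2% of the list, against 2.77% of all tested genes). This list shares *Pklr* with the 37 genes.

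Genes that fasting induces did not lie opposite to these. Of 10, 7 were higher and 3 lower in FL livers, with a median of 0.14 (0.17 without WT replicate 2 and 0.28 without both livers that stood apart), and 1 had an unadjusted p under 0.05. *Fgf21*, a fasting hormone of the liver, had 815, 897, 544 and 586 in FL and 304, 632 and 229 in WT livers, and only WT replicate 2 reached into the FL range (log2 fold change 0.97, standard error 0.35, limma adjusted p = 0.999, exact permutation p = 0.114). This list shares *Pck1*, *G6pc*, *Igfbp1* and *Irs2* with the 37 genes, which differed among themselves in the livers that stood apart.

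Other cell types were summed in the same way. Endothelial markers had 3247 to 3825 normalised counts in FL and 2927 to 4143 in WT livers, cholangiocyte markers 603 to 1482 and 884 to 1207, neutrophil markers 44 to 129 and 69 to 193, lymphocyte markers 46 to 125 and 35 to 220, and adipose or muscle markers 539 to 1752 and 339 to 1917. The 4 erythroid genes found summed to 2650 to 3435 in FL and 2172 to 2691 in WT livers. In 3 of these 4 every FL liver lay above every WT liver, against 2.77% of all tested genes. Of the 5 cholangiocyte markers tested, 3 had an unadjusted p under 0.05 (limma), against 3.2% of all tested genes. Over all tested genes, every FL liver lay below every WT liver in 1.98% and above in 2.77%. *Krt19* (6 to 21 in FL and 26 to 128 in WT livers) and *Krt7* (2 to 18 and 28 to 33) were below every WT liver in every FL liver, and *Sox9* (297 to 763 and 204 to 261) was above, each with a limma adjusted p of 0.999. The part of these cells in the values of the 37 genes was not tested.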
